A study of Homo sapiens with 15 samples.

Results

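The kallikreins are a family of secreted serine proteases encoded side by side on chromosome 19. Their expression was examined in LNCaP cells, an androgen-sensitive human prostate cancer line, stimulated with androgen in the presence or absence of enzalutamide, a drug that blocks androgen signalling. Members were the rows of the expression table whose symbol is KLK followed by a number. There were 4 of them, KLK2, KLK3, KLK4 and KLK15, among 17272 rows in all. The other 11 of the 15 numbered kallikreins of the human cluster were not analysed here. All cells were grown for 2 days in charcoal-stripped serum, which is poor in steroid hormones, and then received the synthetic androgen R1881 at 1 nM. In 10 libraries R1881 was given with DMSO, the solvent, and in 5 libraries R1881 was given with 2 µM enzalutamide, and cells were collected after 22 h in every case. No cells without R1881 were measured, so all values describe androgen-stimulated cells, and all come from 1 cell line.

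Kallikreins are made as inactive precursors and become active once a short propeptide is cut off, often by another kallikrein. KLK3 is prostate-specific antigen (PSA), a protease that liquefies semen by cutting semenogelins and that is measured in blood as a marker of prostate cancer. KLK2 is its closest relative and can cut the propeptide of KLK3, KLK4 acts in prostate and in the maturation of tooth enamel, and KLK15 can activate the precursor of KLK3 in the test tube. KLK2 and KLK3 are textbook targets of androgen signalling, which acts on DNA through androgen response elements, each a pair of inverted half-sites separated by a short spacer.

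The annotation (GENCODE v44 on GRCh38) places the cluster at chr19:50819146-51084245, a stretch of 265 kb from KLK1 to KLK14. KLK3 (ENSG00000142515) lies at chr19:50854915-50860764 on the plus strand and KLK2 (ENSG00000167751) next to it at chr19:50861568-50880567 on the same strand. KLK15 (ENSG00000174562, chr19:50825289-50837213) and KLK4 (ENSG00000167749, chr19:50906351-50911395) flank this pair and lie on the minus strand. KLK15 overlaps a non-coding gene on the opposite strand. The kit marks strand, but no source names the strand setting of the counting.

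The promoters are shown because KLK2 and KLK3 share much of this sequence. Whether it bears on the differing responses of the members to enzalutamide was not tested, and sequence outside the windows was not searched. The windows run from 250 bases before to 50 bases after the transcription start and are the RefSeq sequences of GRCh38.p14, read 5′ to 3′ on the strand of the gene. They lie at chr19:50854665-50854964 (KLK3), chr19:50873189-50873488 (KLK2), chr19:50911346-50911645 (KLK4) and chr19:50833525-50833824 (KLK15). Capitals mark a match of at least 9 of the 12 fixed letters of the androgen response element consensus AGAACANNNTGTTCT, and the motif TTATA or TTATAA near the start. A TTATA motif on the opposite strand reads TATAA, so TTATAA holds both.
KLK3: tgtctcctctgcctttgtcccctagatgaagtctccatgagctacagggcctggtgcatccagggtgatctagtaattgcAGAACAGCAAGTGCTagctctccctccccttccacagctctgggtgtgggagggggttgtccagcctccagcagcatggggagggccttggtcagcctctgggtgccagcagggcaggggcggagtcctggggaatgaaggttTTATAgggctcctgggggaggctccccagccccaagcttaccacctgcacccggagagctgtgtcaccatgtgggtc
KLK2: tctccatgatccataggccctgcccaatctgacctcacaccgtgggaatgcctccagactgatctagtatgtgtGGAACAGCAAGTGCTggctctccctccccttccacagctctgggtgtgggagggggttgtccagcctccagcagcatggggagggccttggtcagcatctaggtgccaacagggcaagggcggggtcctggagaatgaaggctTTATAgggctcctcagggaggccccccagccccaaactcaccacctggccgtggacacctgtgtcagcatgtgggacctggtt
KLK4: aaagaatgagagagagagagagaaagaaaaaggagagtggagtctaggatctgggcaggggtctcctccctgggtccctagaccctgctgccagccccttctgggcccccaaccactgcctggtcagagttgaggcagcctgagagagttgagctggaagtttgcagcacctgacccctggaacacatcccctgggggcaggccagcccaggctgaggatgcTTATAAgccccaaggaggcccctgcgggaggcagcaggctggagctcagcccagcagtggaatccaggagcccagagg
KLK15: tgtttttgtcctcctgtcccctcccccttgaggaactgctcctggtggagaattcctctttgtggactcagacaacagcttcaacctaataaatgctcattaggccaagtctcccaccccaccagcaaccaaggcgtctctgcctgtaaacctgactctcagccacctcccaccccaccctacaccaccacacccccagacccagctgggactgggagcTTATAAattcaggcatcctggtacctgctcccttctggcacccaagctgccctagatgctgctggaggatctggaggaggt
The best match to the consensus, searched on both strands, held 10 of 12 letters in KLK3 (AGAACAGCAAGTGCT), with its first base at -170 from the start. In KLK2 it held 9 of 12 letters (GGAACAGCAAGTGCT), with its first base at -176. Among 35114 promoter windows of the same length, 1.4% held a match of at least 10 letters and 10.8% a match of at least 9. KLK4 and KLK15 held at most 7 of 12 letters, and 89.2% of windows held at least that many. TTATA on either strand began between -40 and -20 in all 4 members and in 4.7% of all windows. The KLK2 and KLK3 windows were identical in 251 of 313 aligned columns (80.2%) and shared a run of 80 bases. The other pairs of windows were identical in 48.3% to 52.8% of columns, with shared runs of 8 or 9 bases. These matches describe letters in a window and no binding was measured.

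**Figure D1:**
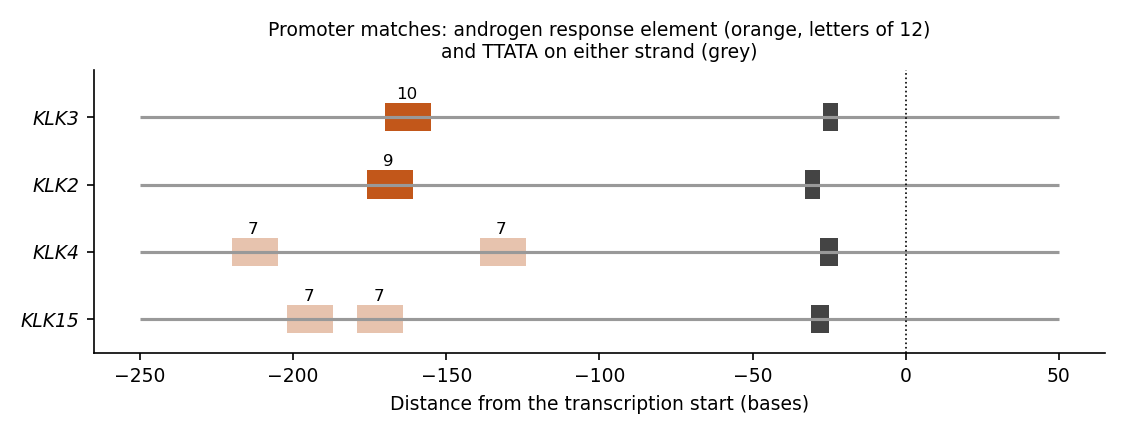
Positions of matches in the 4 kallikrein promoter windows, with distance from the transcription start in bases on the x axis and a line for each gene. Orange boxes are the best matches to the androgen response element consensus, labelled with the letters matched of 12 (pale where 7), and grey boxes are TTATA on either strand. KLK3 and KLK2 hold 10 and 9 matching letters at similar distances from the start.

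Between 15830745 and 25416052 reads per library were recovered from the deposited values, which are reads per gene scaled to the library and are called CPM. LNCaP showed its luminal prostate markers, with values for 6 of 6 listed genes, 3 of them lower and 3 higher with enzalutamide. Of all genes tested, 62.5% passed the test used below and 32.7% passed and were lower. Among basal markers, KRT14 had 1.02 CPM with R1881 and 0.1 CPM with enzalutamide, and KRT5 and TP63 were not analysed here. Of 4 stromal or leukocyte markers 2 had values, COL1A1 at 6.03 CPM with R1881 and 9.96 CPM with enzalutamide and ACTA2 at 3.58 and 3.73 CPM. The part of these differences in the results for the kallikreins was not tested. The labels number the libraries 51 to 55 and 71 to 75 with R1881 + DMSO, and 81 to 85 with enzalutamide. No source explains these numbers. Labels of the enzalutamide libraries also call the enzalutamide high, and the dose of 2 µM is from the methods text. The enzalutamide libraries have a series of their own, so that series and treatment cannot be told apart.

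The 4 kallikreins together took a mean of 0.212% of the counted reads with R1881 + DMSO, between 0.181% and 0.251% in single libraries. With enzalutamide they took 0.0193%, between 0.0178% and 0.0208%, so the 2 ranges were far apart. Each of the 4 members was lower with enzalutamide than with R1881 alone, in the order KLK2, KLK3, KLK4 and KLK15 by the size of the fall. As these are bulk samples, fewer cells expressing a gene and less RNA per cell cannot be told apart.

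KLK3 was the most abundant of the 4 kallikreins. With R1881 + DMSO its lowest, median and highest values were 1345, 1549 and 1868 CPM. The 5 enzalutamide libraries held 130.4, 136.8, 133.6, 145.1 and 124.4 CPM. The lowest R1881 library was 9.27 times the highest enzalutamide library, so the groups did not overlap. The mean was 1588 ± 209 CPM (SD, n = 10) with R1881 and 134.1 ± 7.66 CPM (SD, n = 5) with enzalutamide, an 11.8-fold difference or a decrease of 91.6%. The log2 fold change, computed here and below on log2(CPM + 0.5), was -3.55 with a standard error of 0.08 (95% confidence interval -3.71 to -3.39, limma adjusted p = 1.12e-19). Per kilobase of the 1464-base canonical transcript, KLK3 went from 1085 to 91.6 CPM per kb. That moved it from rank 53 to rank 809 among 14813 genes with a transcript length, so PSA mRNA stayed among the more abundant transcripts of the treated cells.

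KLK2 showed the largest fall of the 4 members. With R1881 + DMSO its lowest, median and highest values were 383.4, 465.1 and 547.3 CPM. With enzalutamide it was at 13.64, 15.81, 16.01, 16.89 and 13.64 CPM. The gap between the groups was 22.7-fold from the lowest R1881 library to the highest enzalutamide library. Means were 462.8 ± 69.2 CPM (SD, n = 10) and 15.2 ± 1.48 CPM (SD, n = 5), a 30.4-fold difference. The log2 fold change was -4.87 ± 0.09 (SE, 95% confidence interval -5.06 to -4.69, limma adjusted p = 1.04e-20), the 7th lowest of 17046 genes tested. Per kilobase of its 2829-base canonical transcript the level went from 163.6 to 5.37 CPM per kb, from rank 498 to rank 8557. KLK2 was then somewhat below the middle of this ranking, which rests on the length of the canonical transcript. KLK3 ranked 36th by fold change and remained well above the median gene in level.

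KLK4 fell less. With R1881 + DMSO its lowest, median and highest values were 173.6, 190.8 and 272.7 CPM, and with enzalutamide it was at 35.7, 51.72, 43.98, 40.83 and 40.54 CPM. Every enzalutamide library was below every R1881 library, with a gap of 3.36-fold. Means were 201.5 ± 30.3 CPM (SD, n = 10) and 42.6 ± 5.92 CPM (SD, n = 5), a 4.73-fold difference. The log2 fold change was -2.23 ± 0.09 (SE, 95% confidence interval -2.42 to -2.04, limma adjusted p = 8.72e-15). Whether KLK4 or KLK2 was higher per kilobase with R1881 depended on the length used. Per kilobase of the canonical transcript KLK4 was at 142.3 and KLK2 at 163.6 CPM per kb, with overlapping libraries (122.6 to 192.6 and 135.5 to 193.5). Per kilobase of all annotated exons of the gene, KLK4 was at 100.5 and KLK2 at 72.9 CPM per kb. With enzalutamide KLK4 was above KLK2 by either length, at 30.1 against 5.37 CPM per kb of canonical transcript and at 21.2 against 2.39 CPM per kb of all exons. KLK3 was the highest and KLK15 the lowest of the members in both groups by either length, with KLK3 at 342.3 and 28.9 and KLK15 at 0.463 and 0.134 CPM per kb of all exons.

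KLK15 was expressed at a low level in both groups. With R1881 + DMSO its lowest, median and highest values were 1.1, 1.48 and 1.76 CPM, from 21 to 35 reads per library. With enzalutamide it was at 0.186, 0.698, 0.455, 0.314 and 0.431 CPM, from 4 to 15 reads per library and 47 reads in all. The groups did not overlap, but the gap was 1.57-fold. Means were 1.44 ± 0.234 CPM (SD, n = 10) and 0.417 ± 0.19 CPM (SD, n = 5), a 3.46-fold difference. The log2 fold change was -1.10 ± 0.12 (SE, 95% confidence interval -1.35 to -0.84, limma adjusted p = 1.15e-07). With so few reads this value depended on the constant added before taking logs, at -1.64 with 0.1 and -0.79 with 1, and was -1.72 by edgeR on the recovered reads.

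**Figure D2:**
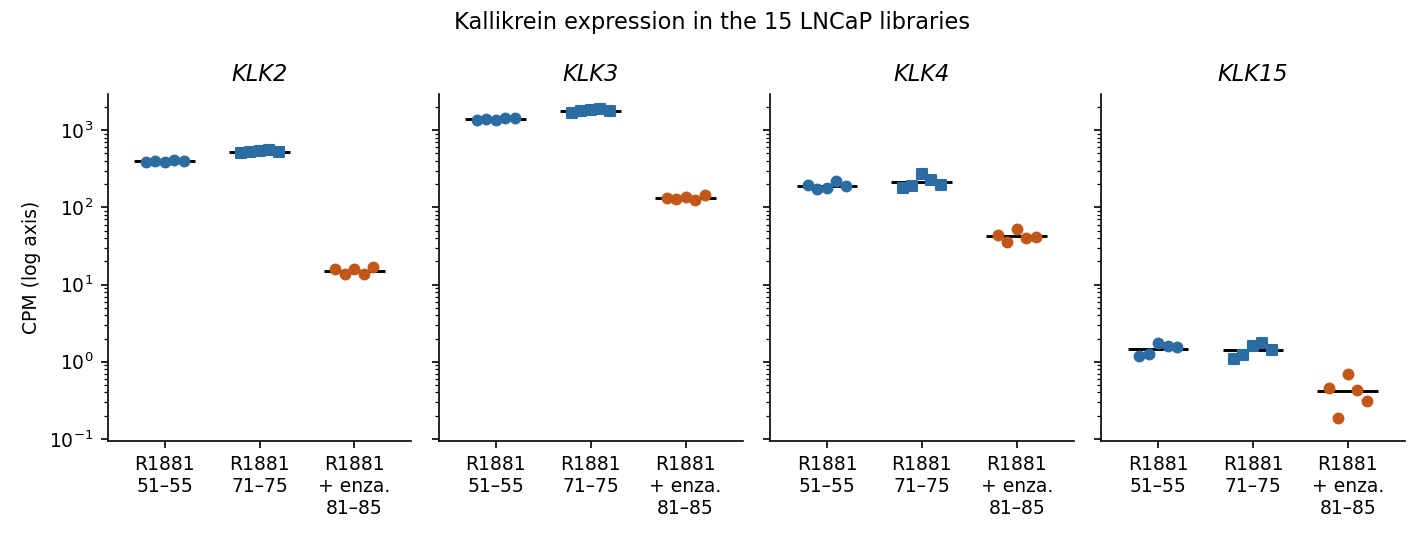
CPM of each kallikrein in each library on a log axis, with a panel per gene. Points are libraries grouped by the numbers in their labels (blue circles and squares, R1881 + DMSO; orange, R1881 + enzalutamide; 5 each) and lines are group means. All enzalutamide libraries lie below all R1881 libraries in each panel, and KLK2 and KLK3 are higher in libraries 71 to 75 than in 51 to 55.

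In this comparison 62.5% of all genes tested passed an adjusted p of 0.05 by limma and 32.7% passed and were lower with enzalutamide, so that passing the test is common in these data. All 4 kallikreins passed and were lower. All 4 were also lower by at least 2-fold on the log2(CPM + 0.5) scale, which held for 4.19% of genes. For KLK15 this depended on the added constant, as its log2 fold change was -0.79 with a constant of 1. KLK15 also met the filter of 0.5 CPM only through its R1881 libraries, its mean with enzalutamide being 0.417 CPM. In all 4, every enzalutamide library lay below every R1881 library, which held for 20.1% of genes. The median log2 fold change of the members was -2.89 beside -0.01 over all genes tested. A two-sided exact permutation test gave p = 0.000333 for each member, the smallest that 3003 regroupings of the libraries can give.

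**Figure D3:**
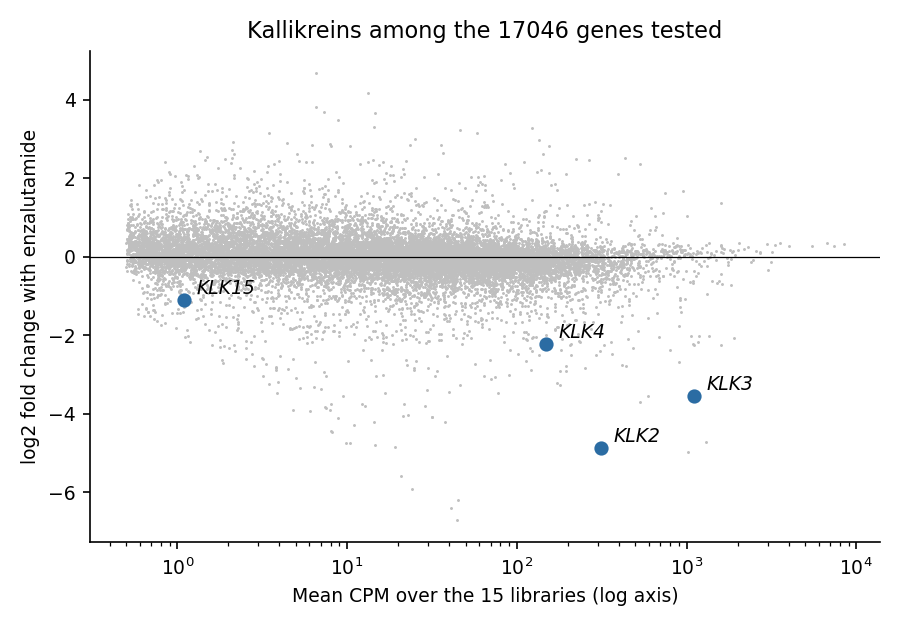
Log2 fold change with enzalutamide against mean CPM over the 15 libraries (log axis) for 17046 genes (grey). The 4 kallikreins (blue) lie below 0, KLK2 and KLK3 among the lowest values of abundant genes and KLK15 among genes with few reads.

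Because the members fell by different amounts, the composition of kallikrein mRNA changed. The share of KLK3 among kallikrein reads was 70.5% ± 0.716 (SD, n = 10) with R1881 and 69.8% ± 2.25 (SD, n = 5) with enzalutamide, with overlapping ranges. KLK2 went from 20.5% ± 0.648 to 7.89% ± 0.358, while KLK4 went from 8.99% ± 1.15 to 22.1% ± 2.21. KLK15 contributed 0.0649% and 0.215%. Reads are not corrected for transcript length here, so these are shares of sequenced fragments.

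The difference in response between members was tested on the log2 ratio of (CPM + 0.5) of each pair within a library. The scaling of a library largely cancels in such a ratio for KLK2, KLK3 and KLK4, but not for KLK15, whose values are near the added constant. All 6 pairs were compared, and each ratio differed between treatments with no overlap between the libraries (two-sided exact permutation test, p = 0.000333 and Benjamini-Hochberg adjusted p = 0.000333, the smallest possible). The ratio of KLK2 to KLK3 was the tightest, at -1.78 ± 0.04 (SD, n = 10) on the log2 scale with R1881 and -3.10 ± 0.07 (SD, n = 5) with enzalutamide, a change of -1.32 ± 0.03 (SE). KLK2 thus fell 2.5-fold further than KLK3. The ratio of KLK2 to KLK4 changed by -2.65 ± 0.11 (SE), and in terms of mean CPM went from 2.3 KLK2 per KLK4 to 0.357. The ratio of KLK3 to KLK4 changed by -1.32 ± 0.11 (SE), from 7.88 to 3.15 in terms of mean CPM. Pairs with KLK15 changed by -3.77 (KLK2), -2.45 (KLK3) and -1.13 (KLK4), the last between -0.59 and -1.42 when the added constant was 0.1 or 1.

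**Figure D4:**
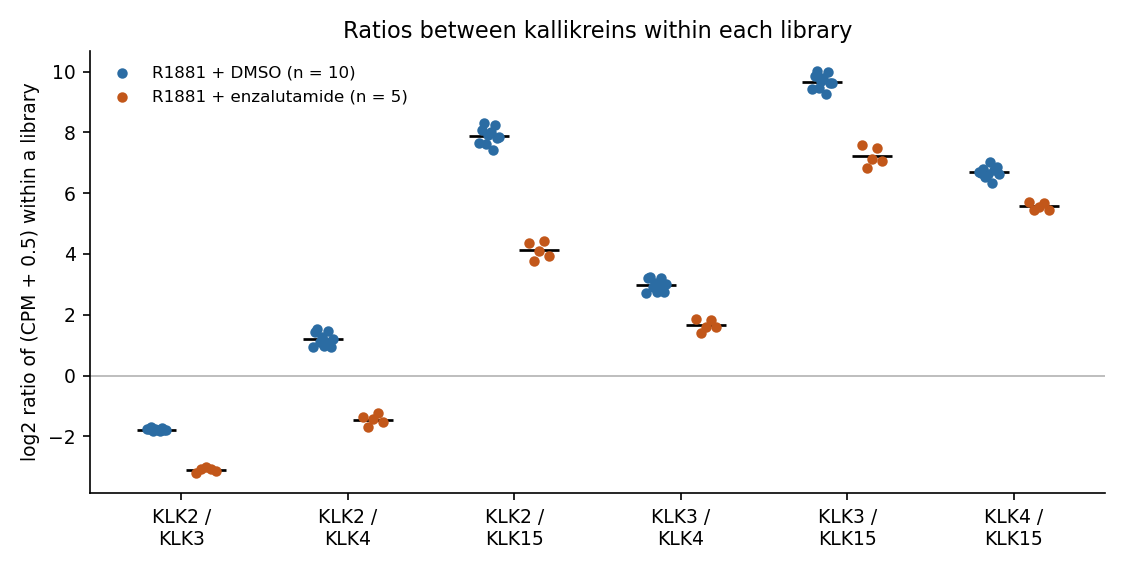
Log2 ratio of (CPM + 0.5) within each library for the 6 pairs of kallikreins, with R1881 + DMSO in blue (n = 10), R1881 + enzalutamide in orange (n = 5) and group means as lines. Every pair sits lower with enzalutamide and no pair overlaps between the groups, the KLK2 to KLK3 ratio being the tightest.

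KLK2 and KLK3 are similar in sequence, so reads could in principle be assigned to the wrong member. Of all 50-base words in the annotated transcripts, 11 of 5074 in KLK3 (0.22%) also occurred in another gene, all of them in KLK2. In KLK2 31 of 6861 (0.45%) were shared, 11 of them with KLK3, and in KLK4 and KLK15 none were. At this read length of 50 bases nearly all exact reads of the members therefore belong to a single gene, whatever rule was used for the rest.

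The 10 R1881 + DMSO libraries were not alike for KLK2 and KLK3. KLK2 was at 383.7, 404.2, 383.4, 417.4 and 402.8 CPM in libraries 51 to 55 and at 512.8, 525.0, 532.7, 547.3 and 518.5 CPM in libraries 71 to 75. Every library of the latter series was above every library of the former. The difference was 0.40 ± 0.03 (SE) on the log2 scale (95% confidence interval 0.33 to 0.48, limma adjusted p = 2.89e-05), and KLK2 had the lowest p of all 17046 genes in this comparison. KLK3 was at 1345, 1407, 1372, 1432 and 1430 CPM in libraries 51 to 55 and at 1667, 1753, 1835, 1868 and 1770 CPM in libraries 71 to 75, again without overlap. Its difference was 0.35 ± 0.04 (SE, 95% confidence interval 0.27 to 0.42, limma adjusted p = 0.000209). For both, a two-sided exact permutation test gave p = 0.00794, the smallest that 252 regroupings can give.

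KLK4 and KLK15 did not pass the test between these series. KLK4 was at 191.6 ± 17.8 CPM in libraries 51 to 55 and at 211.3 ± 38.7 CPM in 71 to 75 (SD, n = 5 each, limma log2 difference 0.13, 95% confidence interval -0.07 to 0.33, adjusted p = 0.414). KLK15 differed by -0.04 (95% confidence interval -0.31 to 0.23, limma adjusted p = 0.87). Among all genes 3.17% passed in this comparison and 0.821% passed and were higher in 71 to 75, beside 2 of 4 kallikreins for both counts. The number passing rested on single libraries and was 541 with all 10, but between 55 and 964 when a library was left out. The differences of KLK2 and KLK3 passed in each of those fits, at 0.39 to 0.42 and 0.33 to 0.37.

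The difference between series was small beside that with enzalutamide. Against libraries 51 to 55 alone, enzalutamide libraries differed by -4.67 for KLK2, -3.38 for KLK3, -2.16 for KLK4 and -1.12 for KLK15 on the log2 scale. Against libraries 71 to 75 alone the values were -5.08, -3.73, -2.29 and -1.08. All 8 values passed the limma test. For KLK2 and KLK3 both values lay just outside the 95% confidence intervals given above. Those intervals treat the 10 R1881 + DMSO libraries as a single group, and they do not measure the spread between label series.

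KLK2 and KLK3 varied together from library to library. After the mean of each treatment was removed, the Pearson correlation of log2(CPM + 0.5) between KLK2 and KLK3 was 0.97 over 15 libraries, the highest for each among the 12164 genes with a mean of at least 5 CPM. The next nearest genes were TOB2 (0.94) and SLC50A1 (0.94) for KLK2, and HERC2P3 (0.95) and TOB2 (0.93) for KLK3. KLK4 correlated with KLK2 and KLK3 at 0.44 and had TUBB4B (0.98), GCAT (0.97) and SLC25A22 (0.97) as its nearest genes. KLK15 correlated with KLK4 at 0.65, with KLK2 at 0.09 and with KLK3 at 0.07, and its nearest genes were PBX2P1 (0.89), DUSP2 (0.87) and LMF1 (0.87). These correlations are descriptions, since all genes of a library share its depth, series and base composition bias.

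KLK4 had the GC-richest canonical transcript of the members, 61.3% against 54.8% in KLK3, 51.1% in KLK2 and 57.6% in KLK15, and the median gene had 47.9%. When the trend of expression on GC content was removed from each library, a step chosen after seeing the data, the SD of log2 KLK4 among R1881 libraries went from 0.20 to 0.08. That of KLK2 was 0.22 before and after. The difference of KLK4 between label series was then -0.03 in place of 0.13, and neither passed. The log2 fold changes with enzalutamide were -2.19 for KLK4 and -4.88 for KLK2, close to those above.

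The genes around the members showed where along the chromosome expression differed. KLKP1, a kallikrein pseudogene annotated as a non-coding RNA between KLK2 and KLK4, was at 13.9 ± 1.62 CPM (SD, n = 10) with R1881 and 3.73 ± 0.332 CPM (SD, n = 5) with enzalutamide (log2 fold change -1.76, limma adjusted p = 7.33e-14). All 5 rows between KLK1 and KLK14 were lower with enzalutamide. On the KLK1 side, C19orf48, 14.2 kb from the cluster, went from 314.8 ± 59 CPM to 71.4 ± 14.1 CPM (-2.13, limma adjusted p = 1.21e-12), without overlap. On the KLK14 side the nearest row, CTU1 at 13.4 kb, did not pass (log2 fold change 0.19, limma adjusted p = 0.235). Of 15 rows within 500 kb outside the cluster, 14 could be tested, 2 were lower (C19orf48 and POLD1, -0.67), 2 were higher (CLDND2, 0.34, and ZNF175, 0.30) and 10 did not pass. Their median log2 fold change was -0.08. Of all genes tested, 62.5% passed in either direction and 32.7% passed and were lower with enzalutamide. GENCODE annotates 111 genes in this window, and those without a row were not analysed here.

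**Figure D5:**
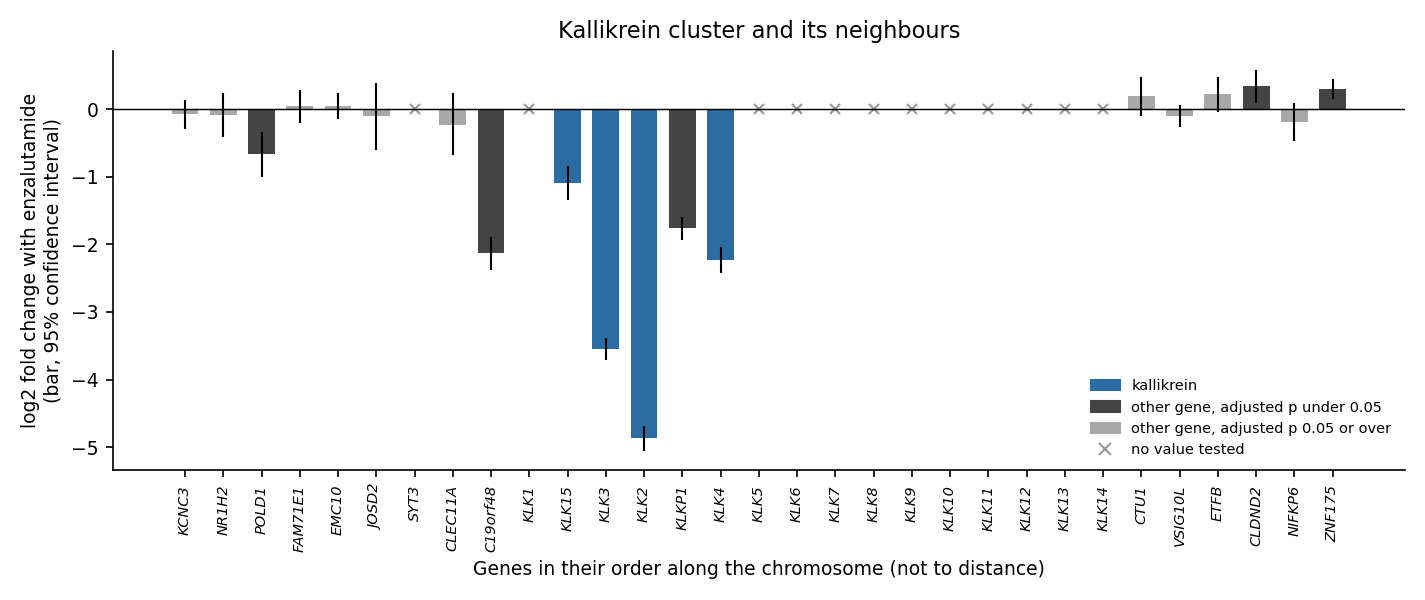
Log2 fold change with enzalutamide (bars, with 95% confidence intervals from limma) for the rows within 500 kb of the kallikrein cluster, in chromosomal order and not to distance. Blue bars are kallikreins, dark and pale grey bars are other genes that did and did not pass the test, and crosses are genes without a tested value. The bars below -1 all lie between C19orf48 and KLK4.

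Genes that act with the kallikreins moved in both directions. Among listed regulators of kallikrein transcription, all 15 had values, 5 were lower and 10 were higher with enzalutamide, with a median log2 fold change of 0.17. Beside these counts and those below, 62.5% of all genes tested passed, 32.7% being lower and the rest higher. The regulators thus fell about as often as genes at large, but passed and were higher more often. The list as a set was not tested. FOXA1, a pioneer factor that opens chromatin, differed by 0.09 (limma adjusted p = 0.022). The ETS factor SPDEF, a known androgen target, had a log2 fold change of -2.49. NR3C1, the glucocorticoid receptor, was at 0.141 CPM with R1881 and 2.01 CPM with enzalutamide (log2 fold change 1.96). Its mean with R1881 was below the constant added before taking logs, so this log2 fold change depends on that constant. The ratio of its mean CPM was 14.3, and NR3C1 met the filter on mean CPM only through its enzalutamide libraries. The coactivator NCOA3 rose by 0.62 on the log2 scale.

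Of 12 listed kallikrein inhibitors 3 had values, and SPINT2, a membrane-bound protease inhibitor, passed the limma test with a log2 fold change of 0.13. SERPINB6 (0.03) and SPINT1 (-0.01) did not pass, and SERPINA3, the main partner of PSA in blood, was not analysed here. Of 12 substrates 4 could be tested. F2RL1, a receptor cut by trypsin-like proteases, fell by 1.06 on the log2 scale, and IGFBP3 (0.78), FN1 (0.76) and F2R (0.53) were higher, with limma adjusted p-values of at most 2.95e-07. Among other products of prostate epithelium, 5 of 8 had values. AZGP1, a secreted glycoprotein, fell by 3.04, between the changes of KLK3 and KLK4, and the zinc transporter gene SLC39A1 fell by 0.33. FOLH1 (prostate-specific membrane antigen), SLC30A4 and ACP3 (prostatic acid phosphatase) were higher, by 1.04, 0.68 and 0.36. Lower expression with enzalutamide was thus not shared by all of these listed products, while all 4 measured kallikreins showed it. The listed products are not all secreted, FOLH1 being a membrane antigen.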

How the data were processed

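Polyadenylated RNA of LNCaP cells was sequenced in 15 libraries, 10 with R1881 + DMSO and 5 with R1881 + enzalutamide per the labels (the methods text gives the numbers the other way round and calls the replicates biological). Labels do not say whether libraries came from separate cultures, so p-values measure the spread between these libraries. The authors prepared libraries with a TruSeq Stranded mRNA kit, used bcl2fastq 2.17, mapped 50-base reads to GRCh38 with STAR and counted with featureCounts. No source names the annotation, the strand setting or the scaling. The deposited signal per gene is called CPM in the methods. Its columns summed to between 1053406 and 1078567 with R1881 + DMSO and between 985580 and 1008992 with enzalutamide. The values (100%) were whole multiples of 1 read within 0.01 reads, which gave 15830745 to 25416052 reads per library. None of 55 pairs of libraries of a treatment matched within sampling noise (lowest chi-square over its degrees of freedom 2.01).

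Differences were tested with limma 3.58.1 in R 4.3.3 (trended variance, on log2(CPM + 0.5) of the 17046 genes averaging 0.5 CPM or more, Benjamini-Hochberg adjustment over all genes, threshold 0.05), and edgeR 4.0.16 and DESeq2 1.42.0 on the recovered reads were alternatives. The design had been written for CPM and the deposited values were kept. Single values and pair ratios were compared with two-sided exact permutation tests. The limma step was run on simulated independent libraries with a common spread and no label series. It called 100% of 200 genes changed 2-fold and 11 of 16846 unchanged genes. Those settings differ from these data, so this run does not measure error rates here. Positions and lengths are from GENCODE v44 (85.8% of symbols matched), promoters from RefSeq, both on GRCh38. Named genes were all kallikreins, up to 2 highest and 2 lowest passing genes of each list plus its textbook head genes, KLKP1, the nearest neighbours, and the 3 genes most correlated with each member; POLD1, CLDND2, ZNF175, F2R, SERPINB6, SPINT1 and the markers KRT14, KRT5 and TP63 were named beside them after their values were seen. Some genes that this rule names are left out of the text. The members and lists were chosen with earlier results of these data known. Alternatives covered pseudocounts, filter, scaling, test, replicate block, label series, GC trend (added after seeing the data) and leaving out each library. The number of libraries limits precision, and for KLK15 counting error does too.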

Additional observations from a re-analysis of the deposited data

Results flagged for a closer look

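Of 22 groups of library values examined, 1 held a library standing apart, where chance gives about 1.1. KLK4 was at 272.7 CPM in R1881 + DMSO replicate 6, the library numbered 73, and the next highest of the 10 libraries was at 225.5 CPM. The gap was 0.476 of the range, beside a limit of 0.466. After the trend on GC content was removed from each library the gap was 0.154 of the range. In the same library C19orf48 was also highest, at 450.7 CPM.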

How the results depend on the processing

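Of 388 recomputed values, 379 kept their side of the threshold or, for counts, stayed within 1.5 times. All of the former kept their direction except differences of KLK4 and KLK15 between the R1881 label series, which never passed, KLK4 at -0.03 with the GC trend removed and KLK15 at up to 0.02 without a library. The others were 9 counts of genes passing between the R1881 label series, which was 541, ranged from 55 to 964 with each library left out, and was 848 with the GC trend removed. Leaving out replicates 3, 4, 5, 6, 7, 8, 9 or 10 moved it by over 1.5 times, to 964, 349, 86, 344, 73, 282, 55 and 60. Without 1 library the log2 fold changes with enzalutamide stayed within -4.91 to -4.84 (KLK2), -3.58 to -3.52 (KLK3), -2.30 to -2.17 (KLK4) and -1.20 to -1.0 (KLK15). Over the other settings KLK15 ranged from -1.77 (DESeq2) to -0.79. The count of genes passing with enzalutamide stayed between 10010 and 10917.

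Replicate numbers did not pair the libraries: the correlation of deviations between libraries with the same title number was -0.07 to 0.07, and with the same last digit -0.42 to 0.67, above 0.1 in 0 of 5 and 2 of 10 pairs. With the replicate block on title numbers the values were -4.93, -3.60, -2.23 and -1.13, with 10043 genes passing, and with the last digit as block -4.87, -3.55, -2.23 and -1.10, with 10720 genes, and no call on a member changed.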
